A study of Mus musculus with 24 samples.

Results

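T-box genes encode transcription factors that share a DNA-binding domain and that are used for identity, outgrowth and patterning in many embryonic tissues. Tbx5 is required for the forelimb to form, Tbx4 acts mainly in the hindlimb, and Tbx2, Tbx3, Tbx15 and Tbx18 are expressed in parts of the limb bud or the adjoining body wall. Tbx1 is a gene of the pharyngeal region and Tbx20 a gene of the heart, and neither has an established role in limb mesenchyme.

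The 8 genes Tbx1, Tbx2, Tbx3, Tbx4, Tbx5, Tbx15, Tbx18 and Tbx20 were chosen by name out of 21911 protein-coding genes. For each gene, the peaks that overlapped its gene body or the 50 kb on either side were taken from 7 histone mark peak lists. The lists came from ChIP-seq, in which chromatin carrying a mark is precipitated with an antibody and sequenced, on forelimb buds of E10.5 embryos with 32 to 35 somites, using 400000 cells each time. The embryos were on a Swiss Webster background and were either wild type (WT) or Shh-/-, lacking the ligand Sonic hedgehog through the null allele Shh tm1amc. The study's WT controls included heterozygous littermates, and forelimbs of several embryos were pooled. NIH3T3 fibroblasts, a mouse cell line with a working Hedgehog pathway, were treated for 48 h with 400 nM purmorphamine, an agonist of the pathway, or with the solvent DMSO as control, and LIF was listed for both arms; 1000000 cells were used. In all, 24 libraries fell into 14 groups, with 14 immunoprecipitations and 10 inputs.

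H3K27ac, the acetylation of lysine 27 of histone H3, is found at regulatory elements in use. H3K4me2 is also found at poised elements, and H3K27me3 is placed by Polycomb complexes over genes kept silent. H3K27ac and H3K4me2 were mapped in WT and Shh-/- limb buds, H3K27me3 in Shh-/- limb buds alone, and H3K27ac in both NIH3T3 arms, with a different H3K27ac antibody in NIH3T3 cells than in limb buds. Each list had been called on 2 replicates together, so no spread between replicates could be computed and no difference below was tested. Shares are given with 95% Wilson intervals, which cover counting error only, and beside the same share over the whole list. The lists held between 20846 and 91023 peaks, and the sequencing depth behind them was not given in the files.

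The limb bud lists were checked against marker genes. Promoters reached from 2 kb before any annotated transcript start to 1 kb past it. All 5 markers of limb mesenchyme had an acetylated promoter in both genotypes. None of the 4 hindlimb markers had one, and all 4 had an H3K27me3 peak there. H3K27me3 was also at the promoters of 2 of the 5 limb mesenchyme markers (Prrx1 and Twist1, both acetylated), 4 of 4 muscle precursor markers and 4 of 5 surface ectoderm markers. Of 5 markers of heart muscle and flank viscera 1 had an acetylated promoter in each genotype. Of 5 endothelial markers Cdh5 had one in WT alone and Pecam1 in Shh-/- alone, while 0 of 5 surface ectoderm markers and 0 of 4 blood markers had one. For muscle precursors the count was 0 of 4 in WT and 2 of 4 in Shh-/-. All 4 fibroblast markers had acetylated promoters in both NIH3T3 lists, and 2 of the 4 had them in each limb genotype. In both NIH3T3 lists 4 of the 5 limb mesenchyme markers were also acetylated. Of the 5 heart and flank markers, 2 were acetylated in control NIH3T3 cells and 3 with purmorphamine. These sets thus separated NIH3T3 cells from limb buds only in part.

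The 8 loci fell into distinct chromatin states in these lists. Tbx5 lay under some of the widest acetylated domains of the limb bud and had no acetylated peak in NIH3T3 cells. Tbx15, Tbx18 and Tbx3 were acetylated in the limb bud and in NIH3T3 cells. These 3 and Tbx5 also had H3K27me3 peaks at a promoter in Shh-/- limb buds. At Tbx3 this was a single narrow peak upstream of the start (chr5:119668950-119669149, rank 8615), which overlapped no Shh-/- H3K27ac peak. Tbx2 had a wide H3K27me3 domain over its gene body, with narrow acetylated peaks at and around the gene. Tbx4 had a wide H3K27me3 domain over its start region and acetylated peaks away from it. The best-ranked acetylated peak of both windows lay between these genes. Tbx1 and Tbx20 had the widest H3K27me3 domains of the 8 and no acetylated promoter in the limb bud.

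**Figure D1:**
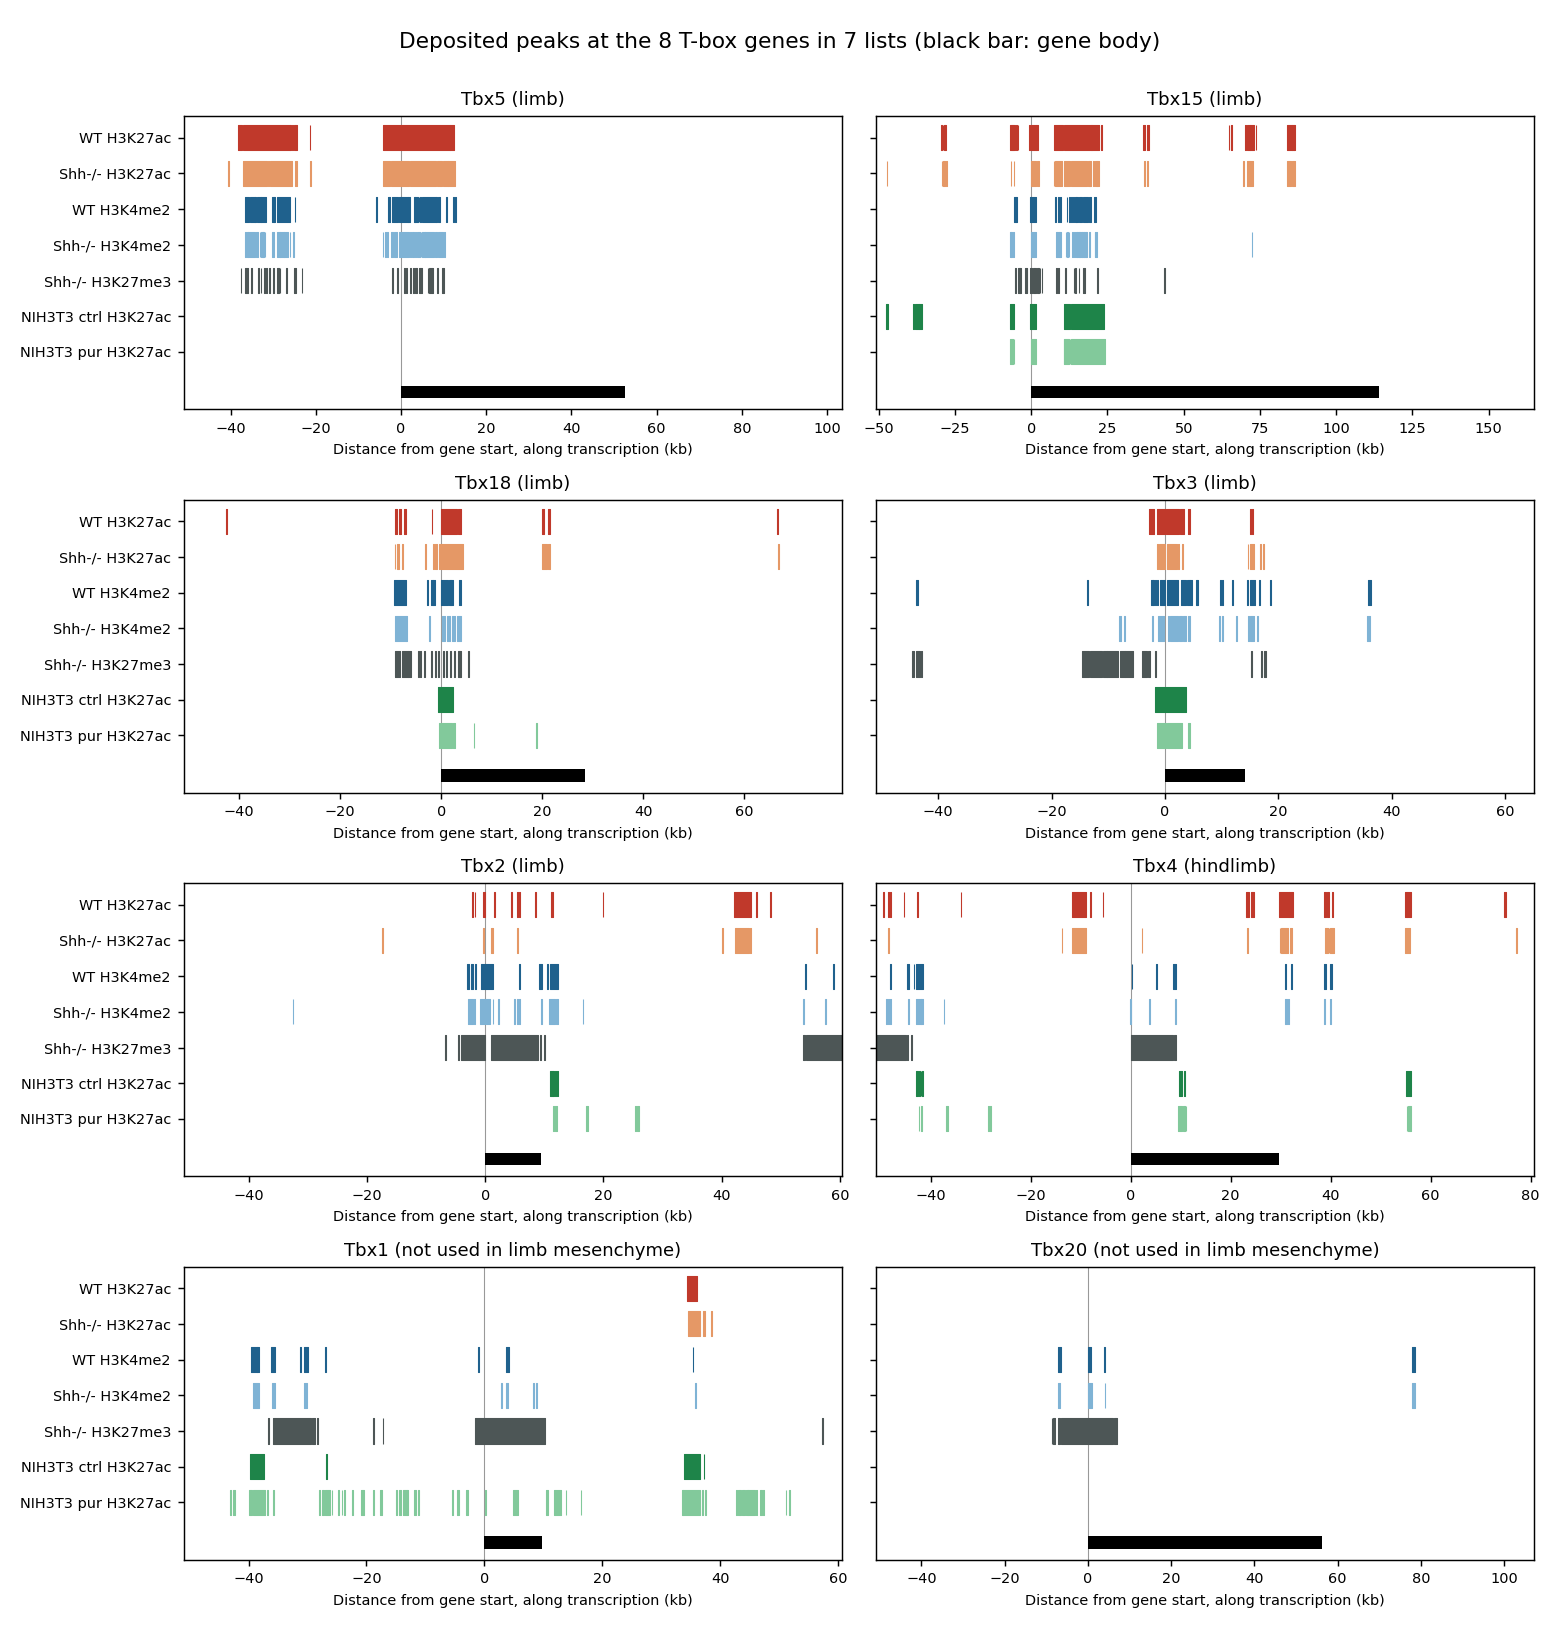
Each panel shows 1 gene, with distance from the gene start along transcription in kb on the x axis and the 7 peak lists as rows. Bars are deposited peaks drawn to scale with a thin outline that keeps the narrowest visible, and the black bar is the gene body. The 2 acetylated domains of Tbx5, the acetylated peaks away from the Tbx4 start and the dense purmorphamine peaks of Tbx1 stand out.

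Sequences from the best-ranked acetylated peaks of Tbx5 and Tbx4, the forelimb and the hindlimb gene, are shown first. Each is the 121 bases around the summit of 1 of the 2 best-ranked WT H3K27ac peaks of its window, read from the plus strand of GRCm38 (mm10), with every CpG in capitals. The Tbx5 stretches come from chr5:119837362-119837482, within the gene, and chr5:119803917-119804037, upstream of it. The Tbx4 stretches come from chr11:85875707-85875827, between Tbx2 and Tbx4, and chr11:85917452-85917572, just past the 3′ end of Tbx4.
Tbx5 start domain: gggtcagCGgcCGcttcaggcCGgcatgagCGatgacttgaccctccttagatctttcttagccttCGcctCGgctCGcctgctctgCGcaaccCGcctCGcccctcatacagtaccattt
Tbx5 upstream domain: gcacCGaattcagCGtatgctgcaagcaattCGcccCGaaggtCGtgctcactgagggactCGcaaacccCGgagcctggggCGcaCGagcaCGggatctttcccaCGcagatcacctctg
Tbx4 upstream peak: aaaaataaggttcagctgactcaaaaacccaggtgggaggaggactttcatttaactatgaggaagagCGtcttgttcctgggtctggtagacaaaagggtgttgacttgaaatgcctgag
Tbx4 downstream peak: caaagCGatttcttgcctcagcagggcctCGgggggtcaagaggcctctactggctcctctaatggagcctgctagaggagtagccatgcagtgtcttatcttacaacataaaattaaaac

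The Tbx5 stretches held 10 and 11 CpGs, and the Tbx4 stretches held 1 and 2. The corresponding stretches held 20 at Tbx18, 14 at Tbx15 and 7 at Tbx3. The median over all 49679 WT H3K27ac summits was 2 CpGs. It was 6 where the peak overlapped a WT H3K4me2 peak and 1 where it did not.

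Promoter sequences from RefSeq were matched for 4 of the 8 genes, from 250 bases before to 50 after the start. Tbx18, acetylated in limb buds and NIH3T3 cells, and Tbx20, acetylated in neither, are printed 5′ to 3′ on their coding strand, which is the minus strand of GRCm38, with CpGs in capitals. Tbx18 lies at chr9:87731211-87731510 and Tbx20 at chr9:24774254-24774553.
Tbx18 promoter: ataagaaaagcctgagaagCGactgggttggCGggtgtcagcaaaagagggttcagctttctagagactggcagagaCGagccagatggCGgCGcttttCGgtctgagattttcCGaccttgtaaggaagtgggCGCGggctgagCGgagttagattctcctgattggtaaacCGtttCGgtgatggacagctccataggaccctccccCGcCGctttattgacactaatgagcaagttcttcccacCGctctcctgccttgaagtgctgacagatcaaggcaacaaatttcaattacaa
Tbx20 promoter: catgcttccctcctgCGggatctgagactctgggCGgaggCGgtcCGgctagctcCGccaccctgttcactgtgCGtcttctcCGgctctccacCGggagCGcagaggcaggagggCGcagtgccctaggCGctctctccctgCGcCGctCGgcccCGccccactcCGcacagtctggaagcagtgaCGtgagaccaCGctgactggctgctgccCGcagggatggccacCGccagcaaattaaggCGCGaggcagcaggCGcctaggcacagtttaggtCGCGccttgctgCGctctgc

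The unacetylated Tbx20 promoter was the richer in CpGs, with 26 against 15 for Tbx18, and the median over 32851 RefSeq promoters was 7. The printed Tbx18 stretch lay at the edge of the acetylated peak, which ended at chr9:87731349 in WT and chr9:87731249 in Shh-/-. The 121 bases around the WT summit, near the Tbx18 start 0.8 kb into the gene, held 20 CpGs. Read from the genome over the same span of 300 bases at the 5′-most annotated start, the 8 genes held from 12 CpGs at Tbx5 to 29 at Tbx3, and the median over 21911 genes was 11. All 8 starts were thus above the genome median, though some only just. The Tbx5 start held more CpGs than 50.8% of genes, that of Tbx15 more than 55.2% and that of Tbx3 more than 85.8%.

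Tbx5, which directs forelimb formation, lies at chr5:119832668-119885219 on the plus strand. In WT limb buds the peak over its start was 15650 bp wide (chr5:119828400-119844049). It ranked 61 in the list, with a largest ChIP to input ratio of 7.00 on the log2 scale, and 2 of 49679 peaks were wider. A separate domain between genes, 37.1 to 26.1 kb upstream, was 10950 bp wide (chr5:119795600-119806549) and ranked 177, with a log2 ratio of 6.69; 7 peaks of the list were wider. In Shh-/- limb buds the same regions were covered by more and narrower peaks. The widest was 6250 bp, at chr5:119834700-119840949, and it ranked 17 with a log2 ratio of 7.04. Bases under peaks came to 29800 in WT and 28100 in Shh-/-, which put the Tbx5 window above 99.6% of gene windows in both lists. The 2 domains were thus present in both genotypes, in fewer and wider peaks in WT.

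H3K4me2 followed the acetylation at Tbx5, with 25 peaks over 18850 bases in WT and 30 over 17350 in Shh-/-. No peak of any NIH3T3 list fell in the Tbx5 window. The Shh-/- H3K27me3 list had 26 narrow peaks in the Tbx5 window, the widest 900 bp, and 23 of them overlapped a Shh-/- H3K27ac peak. The best-ranked of these (chr5:119836800-119837699, rank 2051, log2 ratio 3.45) included the summit of the WT start domain printed above.

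Tbx15, a regulator of mesenchyme that forms skeleton and skin, lies at chr3:99240381-99354259 on the plus strand and has another annotated start 13.4 kb into the gene. The widest WT peak, 8850 bp at rank 741 (chr3:99251050-99259899, log2 ratio 6.03), covered this internal start. In Shh-/- limb buds 5450 bp at rank 494 (chr3:99253300-99258749, log2 ratio 5.91) covered it. The same start was under a peak of 10850 bp in control NIH3T3 cells (rank 868) and of 11100 bp with purmorphamine (rank 269). The window had 30 WT and 27 Shh-/- H3K27ac peaks over 25800 and 20800 bases. It also had 20 H3K27me3 peaks over 5950 bases in Shh-/- limb buds, the widest 900 bp. Within 5 kb of the gene start 37.0% of bases were under H3K27me3, against 23.0% under Shh-/- H3K27ac. The best-ranked WT-only H3K27ac peak of the window was a 400-bp intronic peak at rank 7323 (chr3:99310550-99310949), 151 bp from a Shh-/- peak. Far into the gene, an exonic peak 71.8 to 73.0 kb from the gene start ranked 1367 in WT and one 71.8 to 72.8 kb from it ranked 1990 in Shh-/-, and no NIH3T3 peak lay there. At Tbx15 lay 6 of the 8 control-only NIH3T3 peaks of these windows, the best at rank 13352 within the neighbouring gene Wars2.

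Tbx18, a gene of lateral mesoderm derivatives and proximal limb mesenchyme, lies at chr9:87702800-87731260 on the minus strand. Its start carried a 3200-bp acetylated peak at rank 388 in WT (chr9:87728150-87731349, log2 ratio 6.34) and a 4250-bp peak at rank 56 in Shh-/- (chr9:87727000-87731249, log2 ratio 6.70). Acetylated bases came to 6000 in WT and 7450 in Shh-/-, 1 of 2 windows of the 8 with more bases in Shh-/-. NIH3T3 cells had start peaks of 2500 bp (control, rank 569) and 2200 bp (purmorphamine, rank 1369). A region between 6.0 and 9.5 kb upstream carried all 3 marks: WT H3K4me2 over 2400 bp, Shh-/- H3K4me2 over 2250 bp, H3K27me3 over 2850 bp, and acetylation over 1050 bp in WT and 600 bp in Shh-/-. The best-ranked Shh-/- only H3K27ac peak of the 8 windows was there, 300 bp wide at rank 7014 (chr9:87739650-87739949), but a WT peak lay 51 bp away.

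Tbx3, a repressor expressed at the anterior and posterior limb margins, lies at chr5:119670669-119684724 on the plus strand, 147.9 kb from Tbx5. At its start the WT H3K27ac peak was 1450 bp at rank 1975 (chr5:119669250-119670699, log2 ratio 5.42), and the Shh-/- peak was 1000 bp at rank 7367 (chr5:119669650-119670649, log2 ratio 4.00). Within 5 kb of the gene start 5450 bases were acetylated in WT and 3450 in Shh-/-. Downstream of the gene the order was the other way round. There, 14.9 to 15.6 kb from the gene start, Shh-/- limb buds had a 700-bp peak at rank 4977 (log2 ratio 4.36), which overlapped 2 WT peaks of 100 and 200 bp at ranks 47428 and 41202 (log2 ratios 2.49 and 2.65). Of 15 H3K27me3 peaks in the window 9 lay between 15.0 and 1.5 kb upstream of the start and held 9200 of 11050 bases, the widest 2100 bp at chr5:119657500-119659599. Another 3 lay 44.6 to 42.9 kb upstream and 3 lay 15.2 to 17.9 kb downstream, 1 of these, 100 bp wide, inside the 700-bp Shh-/- acetylated peak. In NIH3T3 cells the start was under 1 control peak of 5500 bp at rank 86. With purmorphamine it was under a peak of 1650 bp at rank 1709, and another of 2700 bp at rank 2901 began past it. The Tbx3 promoter was acetylated in every H3K27ac list.

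Tbx2, a repressor of cell cycle inhibitors related to Tbx3, lies at chr11:85832551-85841948 on the plus strand. In Shh-/- limb buds 8000 bp of the gene were under 1 H3K27me3 peak at rank 477 (chr11:85833550-85841549, log2 ratio 4.53), with a 3000-bp peak upstream. Within 5 kb of the start 81.0% of bases carried H3K27me3. Acetylated peaks there were narrow, covering 900 bases in WT and 350 in Shh-/-. Of 13 WT H3K27ac peaks in the window 10 overlapped no Shh-/- peak, and 48.5% of the WT list overlapped none. The 10 were 100 to 300 bp wide. The best ranked 14735 and lay 201 bp from a Shh-/- peak, and another lay 101 bp from one. The rest lay from 851 to 14351 bp from the nearest Shh-/- peak. NIH3T3 cells had no peak at the Tbx2 promoter.

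Tbx4, the hindlimb counterpart of Tbx5, lies at chr11:85886422-85916097 on the plus strand, 44.5 kb past Tbx2, so that their windows overlapped. Its start region was under an 8100-bp H3K27me3 peak (chr11:85886750-85894849, rank 631, log2 ratio 4.38). WT limb buds had no H3K27ac peak at a Tbx4 promoter, and Shh-/- limb buds had a single one of 150 bp at rank 21083. Yet the window held 19 WT and 14 Shh-/- H3K27ac peaks over 10500 and 7950 bases, above 98.0% and 97.0% of gene windows.

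The best-ranked peak of the shared interval lay between Tbx2 and Tbx4, 11.8 to 9.0 kb upstream of the Tbx4 start. It was 2800 bp at rank 1880 in WT (chr11:85874650-85877449, log2 ratio 5.46) and 2500 bp at rank 1603 in Shh-/- (chr11:85874750-85877249, log2 ratio 5.25). It overlapped no peak of the other 5 lists. Among the best-ranked 5% of WT H3K27ac peaks, 16.7% likewise had no overlapping WT H3K4me2 peak, and in Shh-/- the share was 22.3%. Past the 3′ end, a peak of 1900 bp in WT (rank 3710, log2 ratio 4.91) and 1450 bp in Shh-/- (rank 2308, log2 ratio 4.99) did overlap H3K4me2. In NIH3T3 cells acetylation was found at the 3′-most Tbx4 start, 10.3 kb into the gene, with widest peaks of 600 bp in control and 650 bp with purmorphamine. A region downstream of the gene, 55.2 to 56.0 kb from the gene start in the WT list (750 bp, rank 10726), was also acetylated in Shh-/- limb buds and both NIH3T3 arms. H3K27me3 and H3K27ac came from separate libraries, and the H3K27me3 list is from Shh-/- limb buds.

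Tbx1 lies at chr16:18580979-18590671 on the minus strand. An H3K27me3 peak of 11800 bp covered it at rank 21 of the list (chr16:18580450-18592249, log2 ratio 5.40), and a peak of 6500 bp lay over the promoters of the neighbouring genes Gm49601, Gp1bb and Sept5. H3K27ac in the limb bud was confined, in this window and these lists, to 1 WT and 3 Shh-/- peaks inside the neighbouring gene Gnb1l. The best of these ranked 7501 in WT and 6468 in Shh-/-.

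Tbx20 lies at chr9:24718138-24774303 on the minus strand. It had no H3K27ac peak in any of the 4 H3K27ac lists. H3K27me3 covered 12400 bp at its start (chr9:24768350-24780749, rank 773, log2 ratio 4.29), and 23 peaks of that list were wider. Each genotype had 4 H3K4me2 peaks, and all of them were shared. The peak at the gene start was 700 bp in WT and 900 bp in Shh-/- (chr9:24773400-24774299).

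**Figure D2:**
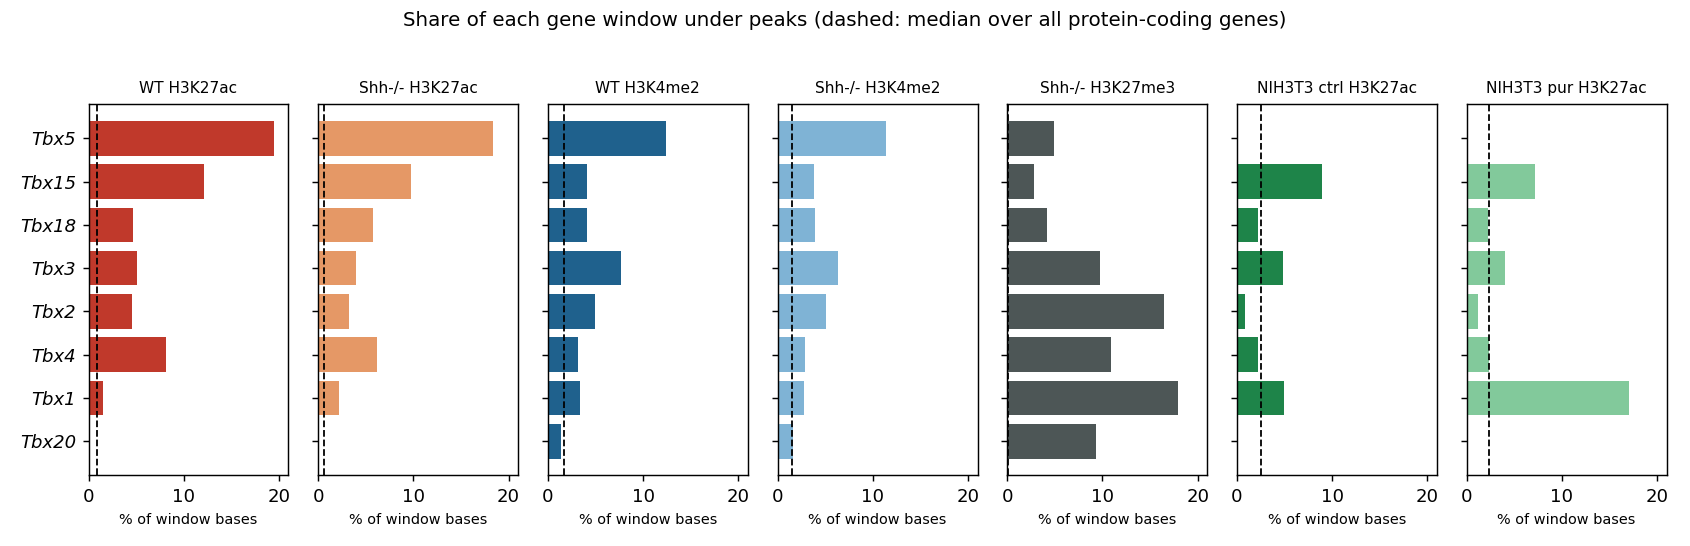
The x axis gives the percent of bases in each gene window that lay under peaks, with 1 panel per list and the genes as rows. The dashed line is the median over 21911 protein-coding genes. Tbx5 reaches 19.5% for WT H3K27ac and 0 in NIH3T3 cells, and Tbx1 reaches 17.9% for H3K27me3.

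Across the 8 genes, the median share of a window under H3K27ac was 4.86% in WT and 4.89% in Shh-/-, against 0.870% and 0.660% over all genes. For H3K4me2 it was 4.12% and 3.88%, against 1.67% and 1.48%. For H3K27me3 it was 9.48% against 0.0634%. The NIH3T3 medians were 2.21% for control cells and 2.33% for treated cells, against 2.53% and 2.32%.

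Promoter peaks were counted over the same genes. An acetylated promoter was found for 5 of 8 genes in WT (45.1% of all genes) and for 6 of 8 in Shh-/- (42.1%), Tbx4 with its 150-bp peak being the difference. All 8 had H3K4me2 at a promoter in WT (65.0% of all genes) and in Shh-/- (64.6%). All 8 also had an H3K27me3 peak there, against 14.7% of genes. In NIH3T3 cells 4 of 8 were acetylated in control (54.3%) and 5 of 8 with purmorphamine (54.4%).

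Tbx3, Tbx15 and Tbx18 had a promoter peak in all 7 lists, as had 2.09% of genes. Tbx2 and Tbx5 had one in all 5 limb lists and in neither NIH3T3 list, a combination found at 0.466% of genes. Tbx20 carried H3K4me2 in both genotypes with H3K27me3 and no acetylation, as did 5.84% of genes, among them the T-box genes T, Tbx21, Tbx22 and Eomes. Tbx1 differed from Tbx20 by purmorphamine acetylation, a pattern of 0.297% of genes. Tbx4 had every mark except WT H3K27ac, like 0.210% of genes. Of the 9 other T-box family genes, 2 had an acetylated promoter in each limb genotype, Tbx6 and Mga, and neither of those had an H3K27me3 peak at the promoter. Tbr1 carried H3K27me3 alone at its promoter, and Tbx10 and Tbx19 had no promoter peak in any list.

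The loss of Shh was compared at these genes through shared and unshared H3K27ac peaks, a peak being shared where it overlapped a peak of the other genotype by at least 1 bp. Counting each peak once, 34 of 79 WT peaks were WT-only (43.0%, interval 32.7 to 54.0), and the whole list had 48.5%. Of 79 Shh-/- peaks 22 were found only there (27.8%, interval 19.2 to 38.6), against 38.4% of the list. The list value lay within the interval in both. The direction against the list turned with the rule: it was 32.0% against 24.9% in the better-ranked 50% of WT peaks, 49.1% against 48.5% for WT peaks with windows of 100 kb, and 34.3% against 31.5% for Shh-/- peaks merged within 1 kb. The unshared peaks were narrow. The median WT-only peak was 200 bp against 650 bp for shared WT peaks, and the widest 1000 bp. The Shh-/- only peaks had a median of 150 bp against 500 bp, and the widest was 400 bp. Unshared peaks held 11.1% of acetylated bases in WT and 5.78% in Shh-/-.

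**Figure D3:**
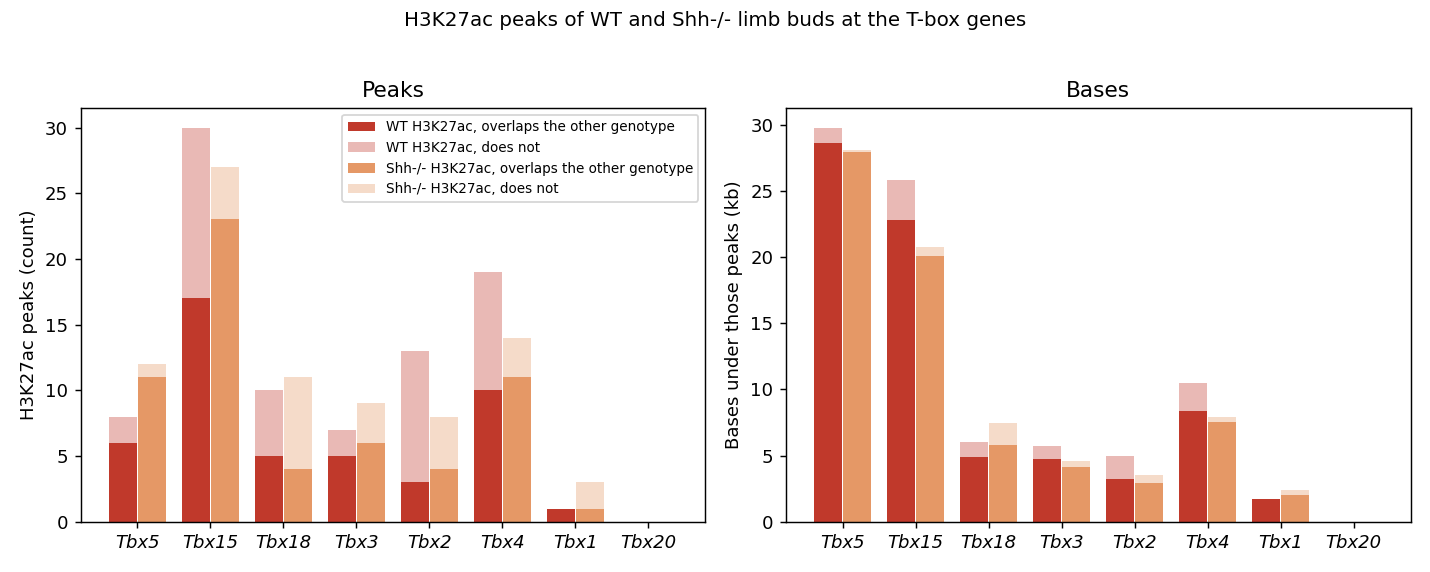
Bars give the number of H3K27ac peaks (left) and the bases under them in kb (right) at each gene in WT and Shh-/- limb buds. Dark parts are peaks that overlap a peak of the other genotype and pale parts are peaks that do not. Pale parts are sizeable in counts, such as 13 of 30 WT peaks at Tbx15, and small in bases.

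In acetylated bases per window, 5 genes were higher in WT and 2 in Shh-/-, and Tbx20 had none. The 8 windows together had 80300 acetylated bases in WT and 71750 in Shh-/-, and the whole lists had 23249950 and 19692300, also more in WT. The differences, as WT minus Shh-/-, ran from 2.34 percentage points of the window at Tbx15 and 1.97 at Tbx4 to -1.13 at Tbx18 and -0.64 at Tbx1. The Tbx15 difference was above 99.2% of gene windows, and that of Tbx18 above 0.639%. These percentiles rank raw points, and windows with much acetylation have more points to differ by. The Tbx15 window was itself above 99.2% of gene windows in WT acetylation. Tbx5 differed by 1.11 points, from 19.5% to 18.4%, and even this was above 94.1% of gene windows. No spread between replicates stands behind these differences.

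H3K4me2 peaks were compared in the same way. Of 100 WT peaks 36 were WT-only (36.0%, interval 27.3 to 45.8, against 25.7% of the list), and 13 of these were at Tbx3. Of 111 Shh-/- peaks 30 were found only in Shh-/-, an interval of 19.6% to 36.0%, and the list had 22.5%. With peaks at the promoters of all other genes left out, the order against the list turned, to 37.2% against 49.4% in WT and 27.4% against 46.8% in Shh-/-. That rule kept the promoter peaks of the 8 genes themselves. The WT-only H3K4me2 peaks were at most 350 bp wide. At Tbx3 the best-ranked of them, at rank 13369 (chr5:119675150-119675499), adjoined a Shh-/- peak.

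H3K27me3 peaks at these genes often overlapped acetylated peaks of the same genotype. Of 101 H3K27me3 peaks at the 8 genes, 49 overlapped a Shh-/- H3K27ac peak (48.5%, interval 39.0 to 58.1), and over the whole list 1.91% did. Seen from the acetylated side, 25 of 79 Shh-/- H3K27ac peaks overlapped H3K27me3 (31.6%, interval 22.4 to 42.5), against 0.701% of that list. The share was 2.23% among the best-ranked 5% of Shh-/- H3K27ac peaks and 13.8% among the 159 that were at least 4 kb wide. H3K4me2 overlapped 45 of the 101 H3K27me3 peaks (44.6%, interval 35.2 to 54.3, against 20.1%).

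The overlap was not spread evenly. Tbx5 had 23 such H3K27me3 peaks of 26, Tbx15 had 11 of 20 and Tbx18 had 10 of 16. Tbx2 had 3 of 9, Tbx4 had 2 of 6 and Tbx3, though acetylated at its start, had 2 of 15. Tbx1 had 0 of 8 and Tbx20 had 0 of 6. Only 40 of 21911 gene windows held 10 or more, and 19 held more than Tbx5. Without the Tbx5 window the share was 26 of 75 (34.7%). The H3K27me3 peaks on acetylated peaks had a median width of 250 bp and a median log2 ratio of 2.56, and 28 of the 49 had an FDR under 0.05. Those elsewhere had a median of 200 bp and 2.63. Over the whole H3K27me3 list 47.2% of peaks had an FDR under 0.05, and the highest FDR was 0.255. Many of these narrow calls were thus weak. Marks on the same bases may come from different cells of the bud, which cannot be told apart here.

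**Figure D4:**
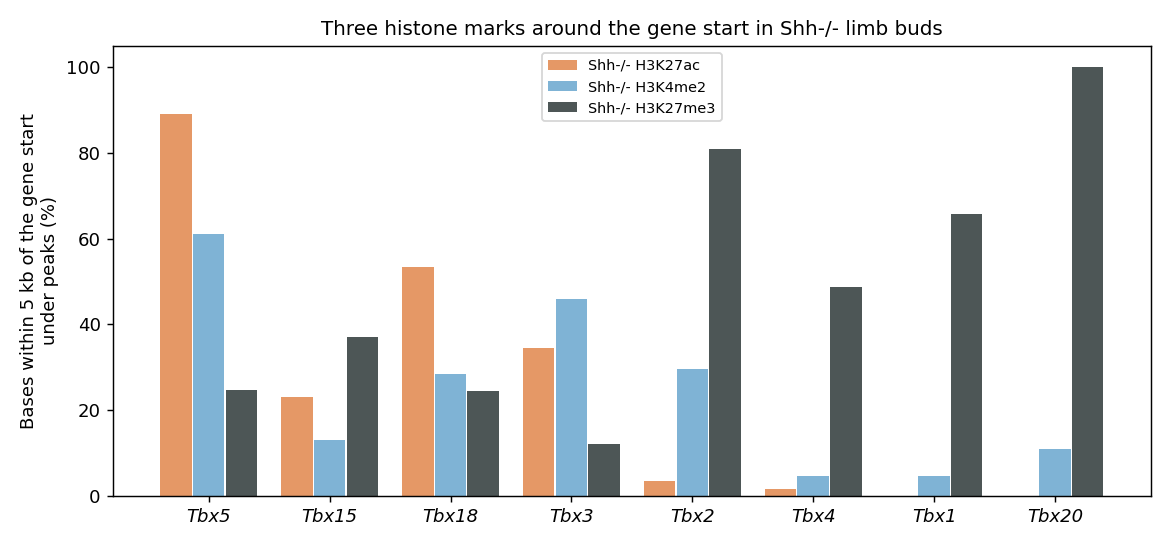
Bars give the percent of bases within 5 kb of the gene start under H3K27ac, H3K4me2 and H3K27me3 peaks in Shh-/- limb buds, 1 value per gene and mark. Tbx5 is at 89.2% for H3K27ac and 24.7% for H3K27me3, and Tbx20 is at 0 and 100%.

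Within the WT limb bud, 33 of 79 H3K27ac peaks at the 8 genes overlapped a WT H3K4me2 peak (41.8%, interval 31.5 to 52.8, against 32.1% of the list). In Shh-/- it was 29 of 79 (36.7%, interval 26.9 to 47.7, against 31.5%). All 7 acetylated WT peaks at Tbx3 overlapped H3K4me2, and 6 of 19 at Tbx4 did. Of the 79 WT peaks 18 overlapped a control NIH3T3 peak (22.8%, interval 14.9 to 33.2), and 38.2% of the whole list did. Tbx5 contributed 0 of 8 and Tbx15 10 of 30 to this count.

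Purmorphamine was compared with DMSO in NIH3T3 cells. Of 71 purmorphamine peaks at the 8 genes 52 were found only with purmorphamine (73.2%, interval 61.9 to 82.1), against 36.5% of the list. Of 24 control peaks 8 were control-only (33.3%, interval 18.0 to 53.3, against 41.1%). The first share rested on Tbx1. That window held 46 purmorphamine peaks and 4 control peaks, and 42 of the 46 were purmorphamine-only. Without Tbx1 the share was 10 of 25 (40.0%), near that of the list.

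The 42 purmorphamine-only peaks at Tbx1 were weak and narrow. Their width ran from 100 to 1100 bp with a median of 200 bp, their log2 ratio from 2.22 to 3.86, and the best ranked 15023 (chr16:18577750-18578799). Only 9 of them were in the better-ranked 50% of their list, and 4 lay in regions under H3K27me3 in Shh-/- limb buds. None overlapped a WT limb H3K27ac peak. They spread over the whole window and 2 touched a Tbx1 promoter. The difference of 42 peaks was exceeded in 32 of 21911 gene windows. The neighbourhood varied on both sides. Between 150 and 100 kb upstream control had 14 peaks and purmorphamine 2, and between 100 and 150 kb downstream control had 14 and purmorphamine 23. Bases under peaks in the Tbx1 window came to 5400 in control and 18800 with purmorphamine.

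**Figure D5:**
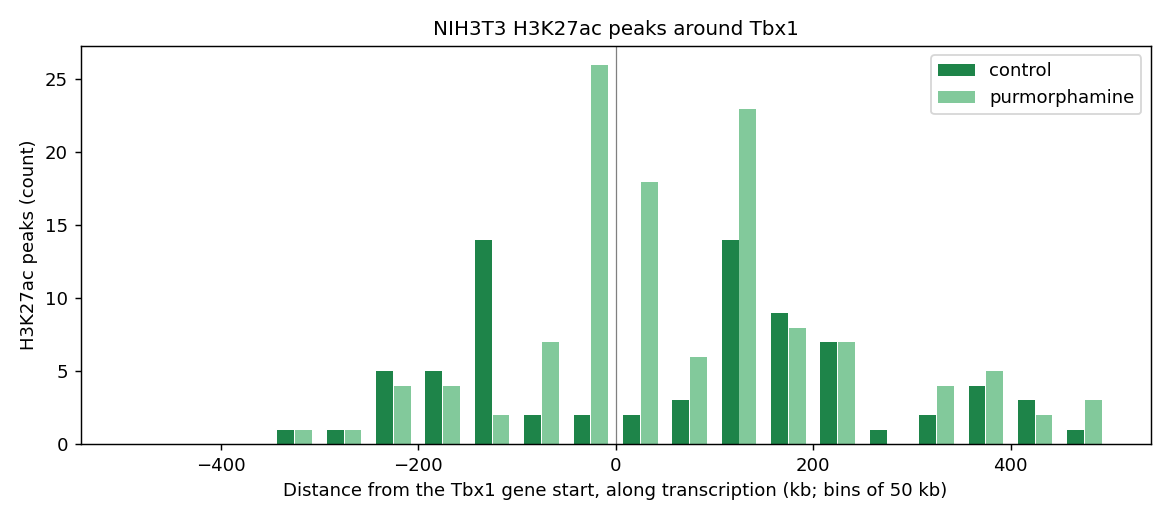
The x axis is the distance from the Tbx1 gene start along transcription in kb, in bins of 50 kb, and bars count NIH3T3 H3K27ac peaks in control and purmorphamine cells. The 2 bins beside the start hold 26 and 18 purmorphamine peaks against 2 and 2 control peaks.

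At the other genes the NIH3T3 counts differed by at most 3 peaks. Tbx4 had 10 purmorphamine and 7 control peaks, Tbx18 had 5 and 2, Tbx3 had 3 and 1, Tbx2 had 5 and 4, and Tbx15 had 7 and 10. Tbx5 and Tbx20 had none in either arm.

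Motifs were searched on both strands as exact letters. The GLI consensus GACCACCCA, bound by the transcription factors of the Hedgehog pathway, occurred 6 times in the 8 windows. None of the 6 was under a limb H3K27ac peak, and 1 was under the H3K27me3 domain of Tbx1. In the 301 bases around the summit it was present for 0 of 79 WT peaks at these genes and for 0.244% of the list. The T-box core AGGTGTGA occurred 61 times, 5 of them under WT H3K27ac peaks. For scale, the WT H3K27ac peaks held 80300 bases, the windows held 1058354, and H3K27me3 covered 8.06% of window bases. Whether either motif fell under peaks more or less often than that coverage was not tested. Within summit windows the T-box core was found for 3 of 79 WT H3K27ac peaks (3.80%, interval 1.30 to 10.6), against 1.07% of the list. For Shh-/- H3K27ac it was 1 of 79 (1.27%, interval 0.224 to 6.83, against 1.05%), and for H3K27me3 1 of 101 (0.990%, interval 0.175 to 5.40, against 1.09%). Of the 300-base RefSeq promoters 1.28% held it and 0.253% held the GLI letters. The homeodomain core TAATTA was in 7 of 79 WT H3K27ac summit windows (8.86%, interval 4.36 to 17.2), against 7.48%. For Shh-/- H3K27ac it was 6 of 79 (7.59%, interval 3.53 to 15.6, against 7.22%). For H3K27me3 it was 3 of 101 (2.97%, interval 1.02 to 8.37), below the 12.1% of that list.

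Only 2 T-box cores lay under peaks of all 5 limb lists, and both were in the upstream Tbx5 domain. They are shown with 12 bases on either side on the plus strand of GRCm38, the core in capitals, at chr5:119796579-119796586 and chr5:119804191-119804198. The second reads on the minus strand. Its H3K27me3 peak (chr5:119804150-119804249) ranked only 18979 of 20846 in that list, and that of the first core ranked 5116.
Tbx5 upstream core, distal: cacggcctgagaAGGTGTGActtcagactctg
Tbx5 upstream core, proximal: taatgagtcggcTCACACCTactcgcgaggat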

How the data were processed

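ChIP-seq peak lists of 7 conditions were used, each called on 2 replicates together. By the study's methods reads were aligned to mm10 and peaks called with CisGenome against input, and the submitters' processing notes name Bowtie2 2.2.5 and limma. Rank, position and 4 measures were given by the authors for every peak. These are a false discovery rate, a q-value of the authors' peak caller, a score, the authors' largest statistic in the peak, the largest log2 ratio of ChIP to input as deposited, and a Poisson p-value on the −log10 scale, also as deposited. No column gave counts. The study's methods state a general minimum of reads, and the depth of each library is not given. Positions are printed as deposited. Their starts are multiples of 50, and whether they count from 0 or 1 is not stated, so they may be off by 1 bp.

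Peaks outside unplaced scaffolds were joined to the comprehensive GENCODE annotation M21 of GRCm38, the assembly of mm10. No peak ran past a chromosome end. Windows, promoters and overlaps are defined where first used. Overlap functions were tested on simulated data and against bedtools 2.31.1. Analyses used Python 3.11.15, pandas 2.3.3, SciPy 1.17.1 for Wilson intervals and pysam 0.24.0 for sequences. Since each list pools its replicates, no test was run.

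The members and gene lists were chosen with earlier results of these data known. The text names all 8 genes, the best-ranked and best-ranked unshared peaks of their windows, the widest H3K27me3 peaks, other T-box genes by promoter pattern, and further peaks chosen after their values were seen. Alternatives were other windows, overlap rules, FDR and rank limits, merged peaks, bases in place of peaks, other promoter definitions and, added after the data were seen, each window left out in turn.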

Additional observations from a re-analysis of the deposited data

How the results depend on the processing

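Unshared shares at the 8 genes moved most with the rule for overlap, rank and unit. Counting a gap of up to 500 bp as shared gave 25.3% WT-only (30.5% of the list) and 16.5% Shh-/- only (20.9%) for H3K27ac, 15.0% (12.2%) and 13.5% (also above its list) for H3K4me2, and 60.6% (24.5%) purmorphamine-only. Requiring 50% of the peak to be covered gave 54.4% (58.9%) WT-only for H3K27ac and 37.8% (29.0%) Shh-/- only for H3K4me2. The better-ranked 50% of the list gave 32.0% (24.9%) and 15.2% (17.3%) for WT and Shh-/- H3K27ac, 5.56% (3.59%) and 0% (4.03%) for WT and Shh-/- H3K4me2, and 46.4% (16.0%) for purmorphamine. It turned the order against the list for WT H3K27ac, for Shh-/- H3K4me2 and for control NIH3T3, at 33.3% (16.9%). Counted as bases outside the other list's peaks, the shares were 22.8% (40.3%) and 13.6% (29.5%) for WT and Shh-/- H3K27ac and 36.4% (29.6%) for purmorphamine. Merging peaks within 1 kb gave 32.4% (39.4%) for WT H3K27ac and 15.4% (29.0%) for control NIH3T3, a 20 kb window 14.3% (41.1%) for control NIH3T3, and merging 60.0% for H3K27me3 peaks on acetylated peaks.

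Of window bases 8.06% were under H3K27me3. The value was 11.6% with 20 kb windows, 5.03% with 100 kb, 7.44% at an FDR under 0.05, 7.57% for the better-ranked 50% and 10.7% after merging. This share of bases has no interval, so any differing value was counted as moved. Of 70 alternatives other than left-out windows, 46 stayed within the interval or count range of the value reported. The counts of 8 promoters with H3K27me3 and 5 with WT H3K27ac were among them, at 7 to 8 and 4 to 5. Promoters of 500 bp on either side dropped Tbx3 from the first count. The better-ranked 50% of the list dropped Tbx2 from the second.

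With each window left out in turn, the unshared share ran from 41.3% to 46.4% for WT H3K27ac, 22.1% to 34.6% for Shh-/- H3K27ac, 29.1% to 39.8% for WT H3K4me2 and 25.2% to 32.1% for Shh-/- H3K4me2. It ran from 40.0% (without Tbx1) to 78.1% for purmorphamine and from 14.3% (without Tbx15) to 38.1% for control. H3K27me3 bases ran from 6.92% to 9.40%, and H3K27me3 peaks on acetylated peaks from 34.7% (without Tbx5) to 54.7%. No paired analysis was possible because each list pools both replicates, and for the same reason no replicate could be left out.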
